A study of Rattus norvegicus with 24 samples.

Results

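The genes described here are the core of the mTOR and Akt pathway, chosen by name: Akt1, Akt2, Mtor, Rptor, Rictor, Tsc1, Tsc2, Rps6kb1 and Eif4ebp1. Of these 9 genes, 8 had a row among the 17334 Entrez identifiers of the files, and all 8 passed the filter on low counts. Rictor, the scaffold of the second mTOR complex, was not analysed here. Each of 24 male rats gave RNA from its left kidney at 8 months of age. All were PKD/Mhm (Cy/+), a strain that carries 1 copy of the Cy allele and forms kidney cysts. The control group (Ctrl) held 6 untreated rats. The CoCM group held 6 rats given conditioned medium from a co-culture of human ABCB5+ stromal cells with stimulated THP-1 macrophages, a human monocyte line. The ipABCB5 and ivABCB5 groups held 6 rats each, given human ABCB5+ cells from skin by intraperitoneal or intravenous injection. Injections were monthly over 6 months. The study's methods give an intravenous route for the medium and the series description an intraperitoneal one. According to the study's methods, cystic carriers were told from non-cystic animals by feeling the abdomen.

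Akt kinases are switched on by growth factor receptors through PI3K. Akt in turn inhibits the Tsc1-Tsc2 complex, which otherwise holds the small GTPase Rheb inactive. Active Rheb turns on mTORC1, the complex of the kinase mTOR and its scaffold raptor (Rptor), and mTORC1 phosphorylates the S6 kinase (Rps6kb1) and the translation repressor 4E-BP1 (Eif4ebp1). In the cystic kidney the pathway is known for driving growth of the tubular epithelium, and it is regulated largely by phosphorylation, which RNA levels do not measure.

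Total estimated counts ranged from 9304630 to 14125457 per kidney. Summed markers of proximal tubule, thick ascending limb, distal tubule, collecting duct, podocytes and endothelium were above 0 in every library. Marker sums are given in CPM, here counts scaled to the total of the library. The CPM of single genes below are scaled by TMM. The 8 markers of injured tubule summed to 8353 to 16540 CPM in 20 kidneys. In the other 4 kidneys (CoCM 39, ipABCB5 38, ivABCB5 36 and ivABCB5 37) the sum was 661 to 1082 CPM. Their macrophage markers (6 genes) summed to 35.8 to 86.7 CPM, against 184 to 494, and their fibroblast markers (6 genes) to 322 to 521, against 833 to 3583. The 8 proximal tubule markers summed to 9280 to 14599 CPM, against 2155 to 8087. None of these 4 kidneys was a control. They are named beside the values they hold at an extreme, and the fitted differences of the genes named are also given without them. In whole kidney, fewer cells of a type and less RNA per cell cannot be told apart.

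All 8 genes were expressed in every kidney, at levels that kept nearly the same order from animal to animal. On the TPM scale, which corrects for transcript length, Akt1 was the highest, with a median of 122.6 over the 24 kidneys and a range of 73.0 to 171. Eif4ebp1 followed with a median of 65.2 (19.7 to 90.0) and Akt2 with 60.2 (42.3 to 79.2). Rps6kb1 had a median of 23.3, Tsc2 of 19.5, Mtor of 13.8 and Rptor of 8.85. Tsc1 was the lowest, with a median of 5.03 TPM. Each neighbour in this order exceeded the next in all 24 kidneys, with 1 exception. Eif4ebp1 and Akt2 could not be ordered, as Eif4ebp1 was the higher of the pair in 10 of 24. The smallest of these gaps by its median was that of Rps6kb1 over Tsc2, with a ratio of 1.07 to 1.46 (median 1.25). The ratio ran from 1.01 to 1.74 for Tsc2 over Mtor (median 1.42) and from 1.01 to 2.83 for Rptor over Tsc1 (median 1.76).

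No core gene differed between groups by the test across all genes. Levels were compared with the edgeR quasi-likelihood F-test fitted to all 24 kidneys and 12778 genes, with Benjamini-Hochberg adjustment over all of them. In CoCM against Ctrl 0 of 8 members passed an adjusted p of 0.05, beside 0.00783% of all genes, which was 1 gene. In ipABCB5 against Ctrl, ivABCB5 against Ctrl, ipABCB5 against ivABCB5 and the F-test over the 4 groups, 0 of 8 passed, beside 0% of all genes. At an unadjusted p under 0.05, edgeR again gave 0 of 8 members in each. The share of all genes under that p was 11.9% for CoCM, 1.77% for ipABCB5, 5.78% for ivABCB5, 2.14% between the routes and 4.71% in the F-test. DESeq2 and limma also called 0 members. A two-sided exact permutation test of log2 CPM gave no p under 0.05 in 32 tests (8 genes in 4 comparisons), where the smallest possible p was 0.00216. Nothing in the labels says how the kidneys were batched for extraction or sequencing.

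**Figure D1:**
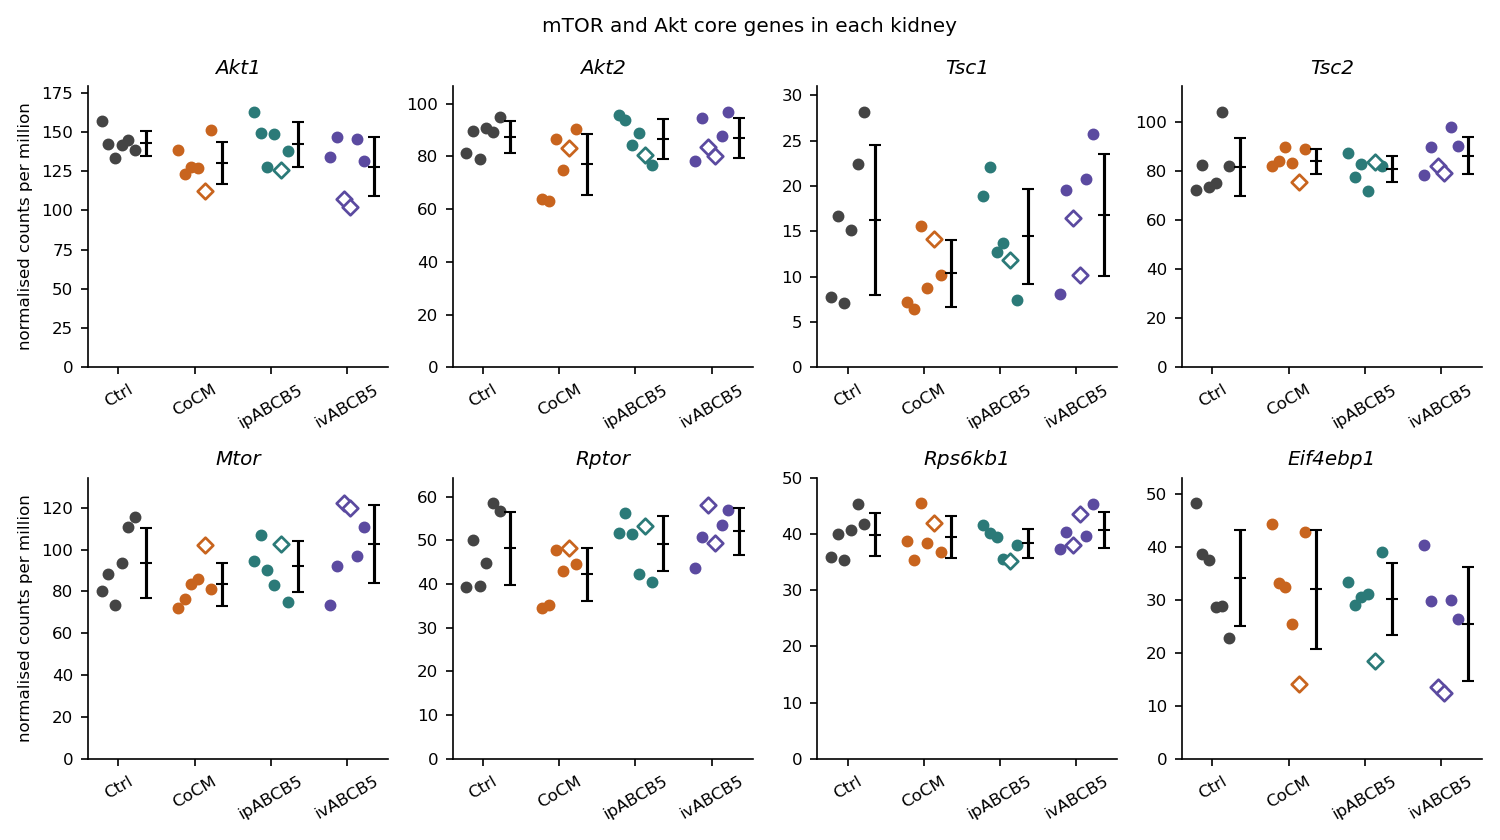
Normalised CPM of each core gene in each kidney (vertical axis, from 0), by group. Circles are kidneys, open diamonds the 4 kidneys with low injured-tubule markers, and bars the mean ± SD of 6 animals. The groups overlap for all 8 genes, Tsc1 spreads widely within every group, and the 4 diamonds are the lowest Eif4ebp1 values.

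Akt1 and Akt2 encode the ubiquitous Akt kinase and the isoform best known for insulin signalling. Akt1 in Ctrl had a lowest, median and highest level of 133, 142 and 156.6 CPM, in CoCM 112, 127.5 and 151.4, in ipABCB5 126, 143 and 163, and in ivABCB5 102, 132 and 147. In CoCM 4 of 6 kidneys lay below the control range and in ivABCB5 3 of 6, though the ranges overlapped. The log2 fold change against Ctrl was -0.14 ± 0.09 (SE) in CoCM and -0.16 ± 0.09 in ivABCB5, with adjusted p-values of 0.52 and 0.673 from edgeR. The exact permutation p of Akt1 in CoCM, 0.0671, was the smallest of the 32. The lowest Akt1 levels of all were in 3 of the 4 kidneys with low injury markers, at 112 CPM in CoCM 39, 107.5 in ivABCB5 36 and 102 in ivABCB5 37. The fourth, ipABCB5 38, was at 126 CPM, inside the range of 123 to 163 of the other 20. Without them the log2 fold change was -0.11 ± 0.07 in CoCM and -0.04 ± 0.08 in ivABCB5.

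Akt2 had the smallest edgeR p of the members. Its lowest, median and highest levels were 78.9, 89.4 and 94.9 CPM in Ctrl and 63.2, 79.1 and 90.3 CPM in CoCM, so that 3 of 6 CoCM kidneys lay below the control range. In ipABCB5 they were 76.7, 86.6 and 95.9 CPM, and in ivABCB5 78.2, 85.7 and 97.1, both across the control range. The log2 fold change in CoCM was -0.18 ± 0.09, with an unadjusted p of 0.0513 and an adjusted p of 0.42 by edgeR, and an exact permutation p of 0.0931. Without the 4 kidneys it was -0.22 ± 0.09, and Akt2 was then the only member with an unadjusted edgeR p under 0.05 (0.0293, adjusted p = 0.26), where 16.9% of all genes were under it. Against Ctrl it was -0.01 ± 0.09 for both cell groups, with 95% intervals from -0.20 to 0.17 for ipABCB5 and from -0.19 to 0.18 for ivABCB5. These were 0.01 ± 0.09 and 0.03 ± 0.10 without the 4 kidneys. The TPM ratio of Akt1 to Akt2 was above 1 in every kidney. Its lowest, median and highest values were 1.86, 2.04 and 2.45 in Ctrl, 1.72, 2.14 and 2.75 in CoCM, 1.93, 2.07 and 2.28 in ipABCB5, and 1.62, 1.84 and 2.17 in ivABCB5. The 3 lowest ratios of all were those of ivABCB5 37 (1.62), ivABCB5 36 (1.64) and CoCM 39 (1.716), and ipABCB5 38 was at 1.99. The lowest ratio among the other 20 kidneys was 1.718.

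Tsc1 and Tsc2 encode hamartin and tuberin, the partners of the complex that holds mTORC1 off, and their RNA levels behaved differently. Tsc1 was the most variable core gene, with an SD within groups of 0.63 on the log2 CPM scale (the 81.9th percentile of all genes tested), and it rested on 75 to 366 counts per kidney. In Ctrl the 6 kidneys read 7.05, 7.70, 15.1, 16.7, 22.5 and 28.2 CPM, a 4.001-fold range among untreated animals. The lowest, median and highest levels were 6.40, 9.45 and 15.6 CPM in CoCM, 7.40, 13.2 and 22.1 in ipABCB5, and 8.09, 17.99 and 25.8 in ivABCB5. All 6 CoCM kidneys lay below the control mean of 16.2 ± 8.26 CPM (SD, n = 6), but only 1 below the control range. The log2 fold change in CoCM was -0.65 ± 0.35 (95% interval -1.36 to 0.07, adjusted p = 0.446 by edgeR). Without the 4 kidneys it was -0.77 ± 0.37 (adjusted p = 0.297). It was -0.16 ± 0.34 in ipABCB5 and 0.05 ± 0.34 in ivABCB5, and -0.11 ± 0.37 and 0.19 ± 0.39 without the 4 kidneys.

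Tsc2 had mean levels of 81.5 ± 11.9 CPM in Ctrl, 83.8 ± 5.21 in CoCM, 80.8 ± 5.36 in ipABCB5 and 86.2 ± 7.65 in ivABCB5 (SD, n = 6 each). Its log2 fold changes against Ctrl lay between -0.01 and 0.08, with 95% intervals from -0.18 to 0.25 at the widest. They were 0.06 ± 0.09 in CoCM, -0.02 ± 0.09 in ipABCB5 and 0.12 ± 0.09 in ivABCB5 without the 4 kidneys. One control kidney, Ctrl 23, was high for Tsc2 (104.1 CPM), and without it the log2 fold changes were 0.113, 0.0613 and 0.152 in the same order. The last then had an unadjusted p under 0.05 and an adjusted p of 0.685 by edgeR. The ratio of Tsc1 to Tsc2 in TPM therefore followed Tsc1. It ran from 0.159 to 0.571 in Ctrl, 0.126 to 0.311 in CoCM, 0.15 to 0.472 in ipABCB5 and 0.171 to 0.474 in ivABCB5, and these ranges overlap. The 4 kidneys with low injury markers lay between 0.212 and 0.333.

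Mtor and Rptor encode the kinase and the scaffold of mTORC1. Mtor had a lowest, median and highest level of 73.5, 90.8 and 115.3 CPM in Ctrl, 71.9, 82.2 and 102 in CoCM, 74.7, 92.4 and 107 in ipABCB5, and 73.5, 103.8 and 122 in ivABCB5. The highest values of all were ivABCB5 36 and ivABCB5 37, at 122.2 and 119.9 CPM, and CoCM 39 and ipABCB5 38 were the highest and the second highest of their groups at 102 and 102.4 CPM. The log2 fold change of Mtor was -0.17 ± 0.13 in CoCM, -0.03 ± 0.13 in ipABCB5 and 0.13 ± 0.13 in ivABCB5, and without the 4 kidneys it was -0.24 ± 0.12, -0.05 ± 0.12 and -0.01 ± 0.13. Rptor ran from 39.3 to 58.5 CPM in Ctrl, 34.6 to 48.2 in CoCM, 40.4 to 56.2 in ipABCB5 and 43.6 to 58.0 in ivABCB5. Its log2 fold change was -0.19 ± 0.12 in CoCM (adjusted p = 0.487 by edgeR), 0.03 ± 0.12 in ipABCB5 and 0.11 ± 0.12 in ivABCB5. Rptor was at -0.24 ± 0.12, 0.01 ± 0.12 and 0.08 ± 0.13 without the 4 kidneys. The ratio of Rptor to Rictor, the scaffolds of the rival mTOR complexes, could not be formed.

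Rps6kb1, the S6 kinase that mTORC1 activates, was the steadiest core gene, with an SD within groups of 0.12 on the log2 CPM scale against a median of 0.30 over all genes tested. It ran from 35.4 to 45.4 CPM in Ctrl, 35.3 to 45.5 in CoCM, 35.2 to 41.7 in ipABCB5 and 37.3 to 45.4 in ivABCB5. Its log2 fold changes against Ctrl were -0.02 ± 0.08, -0.06 ± 0.08 and 0.03 ± 0.08 in that order of treatments, and the 95% intervals reached no further than -0.21 and 0.18. Leaving out the 4 kidneys gave -0.05 ± 0.08, -0.03 ± 0.08 and 0.02 ± 0.08.

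Eif4ebp1, whose product blocks cap-dependent translation until mTORC1 phosphorylates it, separated kidneys within the treated groups. Its lowest, median and highest levels were 22.9, 33.3 and 48.4 CPM in Ctrl, 14.1, 32.9 and 44.4 in CoCM, 18.4, 30.9 and 39.2 in ipABCB5, and 12.4, 28.2 and 40.4 in ivABCB5. The lowest values were those of the 4 kidneys with low injury markers, at 14.1 for CoCM 39, 18.4 for ipABCB5 38, 13.6 for ivABCB5 36 and 12.4 for ivABCB5 37, while the other 20 ran from 22.9 to 48.4 CPM. In these 4 kidneys the TPM ratio of Eif4ebp1 to Rps6kb1 was 1.11, 1.71, 1.17 and 0.944, against 1.79 to 4.40 in the other 20. The part of cell composition in these values was not tested.

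The log2 fold change of Eif4ebp1 was -0.09 ± 0.28 in CoCM, -0.17 ± 0.28 in ipABCB5 and -0.42 ± 0.28 in ivABCB5 (adjusted p = 0.674 by edgeR for the last). Without the 4 kidneys it was 0.05 ± 0.17, -0.06 ± 0.17 and -0.11 ± 0.19, so that the sign changed in CoCM and the size in ivABCB5 was smaller.

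**Figure D2:**
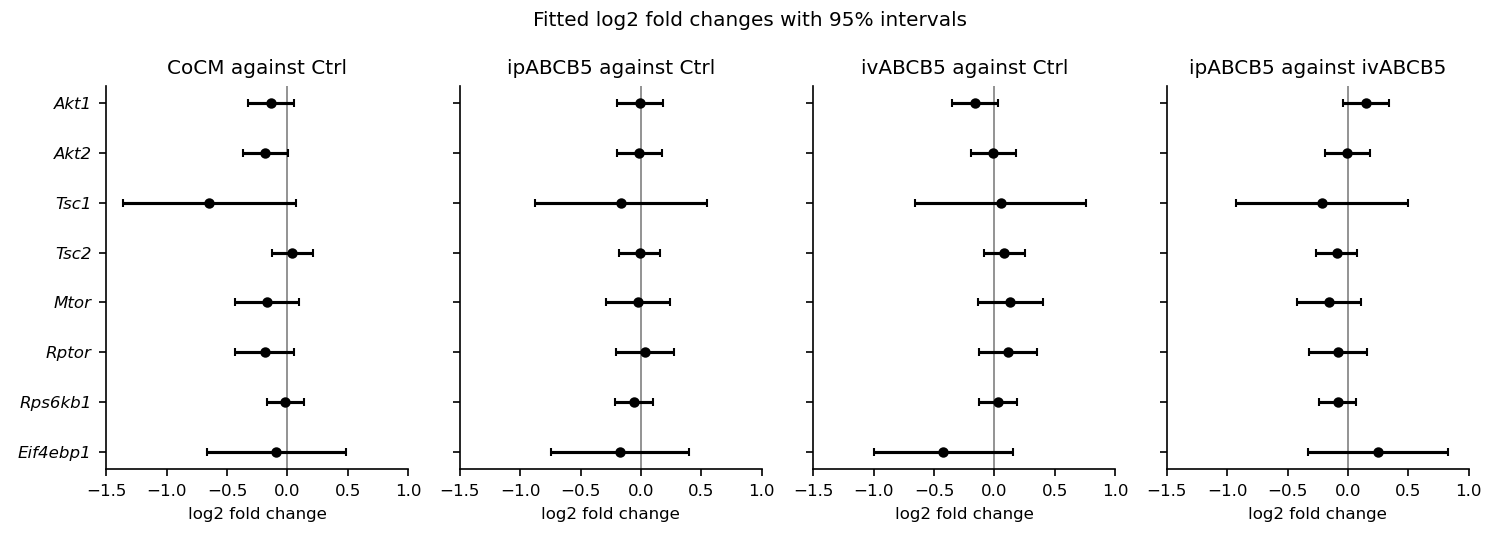
Fitted log2 fold change of each core gene (points) with its 95% interval (bars) in 4 comparisons over 24 kidneys. Every interval holds 0, and the widest belong to Tsc1 and Eif4ebp1.

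The 8 genes seen together had a median log2 fold change of -0.15 in CoCM, where 7 of 8 were below 0, beside a median of 0.0088 over all 12778 genes, of which 48.6% were below 0. The median was -0.02 in ipABCB5 with 7 of 8 below 0, beside 0.00375 and 49% over all genes. It was 0.04 in ivABCB5 (3 of 8), beside 0.0127 and 47.4%. For ipABCB5 against ivABCB5 it was -0.08 (6 of 8), beside -0.000598 and 50.2%. The 8 genes are not separate readings, as Mtor, Rptor and Tsc1 ran together (below). With the length trend described below as a covariate, Mtor, Rptor, Tsc1 and Rps6kb1 in CoCM were above 0. So were Akt1, Akt2, Mtor, Tsc1 and Tsc2 in ipABCB5. The 3 comparisons with Ctrl share the same control kidneys.

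Several core genes followed a property of the libraries. For each kidney, the deviation of every gene's log2 TPM from its mean over the 24 kidneys was regressed on log2 transcript length, taken as count divided by TPM. The slope, called the length trend here, is positive where long transcripts are relatively high. It ran from -0.0886 (CoCM 26) to 0.0946 (Ctrl 23). Its mean over the 6 Ctrl kidneys was 0.0225 ± 0.0612, and the CoCM mean was -0.0391 ± 0.0284, beside -0.00175 ± 0.0643 in ipABCB5 and 0.0183 ± 0.051 in ivABCB5 (SD, n = 6 each). An exact permutation test gave p = 0.0563 (two-sided) for CoCM against Ctrl and 0.504 or more for the other comparisons. All 6 CoCM slopes were below 0.

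Among the 20 kidneys outside the set of 4, log2 CPM rose with the length trend for Mtor (Pearson r = 0.919, Spearman coefficient = 0.961), Rptor (r = 0.91, Spearman 0.931), Tsc1 (r = 0.917, Spearman 0.922), Akt2 (r = 0.778, Spearman 0.814) and Rps6kb1 (r = 0.663, Spearman 0.737). Eif4ebp1 went the other way (r = -0.62, Spearman -0.668). Permutation p-values adjusted over the 8 relations were 2.67e-05 for both coefficients in Mtor, Rptor and Tsc1, whose raw p of 1e-05 is the smallest that 100000 resamples give. They were 0.00012 for r and 0.0001 for the Spearman coefficient in Akt2, 0.00254 and 0.000592 in Rps6kb1, and 0.00577 and 0.00215 in Eif4ebp1. For Tsc2 (r = 0.496, Spearman 0.442) they were 0.0295 and 0.0593, and for Akt1 (r = 0.378, Spearman 0.371) 0.101 and 0.109 by the same permutation test. The length trend was fitted to the same libraries, with the members among the genes. Long transcripts such as Mtor and Rptor thus tend to rise with it by construction, and the permutation does not allow for that. Without the kidneys farthest from the median slope (Ctrl 23 and ipABCB5 29), r was 0.932 for Mtor, 0.909 for Rptor, 0.927 for Tsc1, 0.787 for Akt2, 0.582 for Rps6kb1, -0.661 for Eif4ebp1, 0.348 for Tsc2 and 0.227 for Akt1.

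Inside the groups the relation held in direction for the 3 strongest genes. The Spearman coefficient for Mtor, Rptor and Tsc1 was 0.886, 0.943 and 0.943 over the 6 Ctrl kidneys, 0.9, 0.6 and 0.5 over 5 CoCM kidneys, and 0.9, 0.9 and 0.8 over 5 ipABCB5 kidneys, while 4 ivABCB5 kidneys were too few. For Rps6kb1 it was 0.943, -0.1 and 0.9 in the same order, so its relation did not hold within CoCM. For Akt2 it was 0.6, 0.6 and 0.9, and for Eif4ebp1 -0.486, -0.7 and -0.4. These within-group values rest on 5 or 6 kidneys and were not tested. Over all genes tested the median Spearman coefficient was -0.0511, with quartiles at -0.3624 and 0.3985. Of all genes 2.67% exceeded 0.9, as did 3 of the 8 members, and 12.76% exceeded 0.7, as did 5 of the 8. Transcript length alone did not order the members. Mtor, Rptor and Tsc2 are long (98.9th, 97th and 94.6th percentile of the genes tested), yet Akt2, at the 45.2nd percentile, followed the slope more closely than Tsc2.

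**Figure D3:**
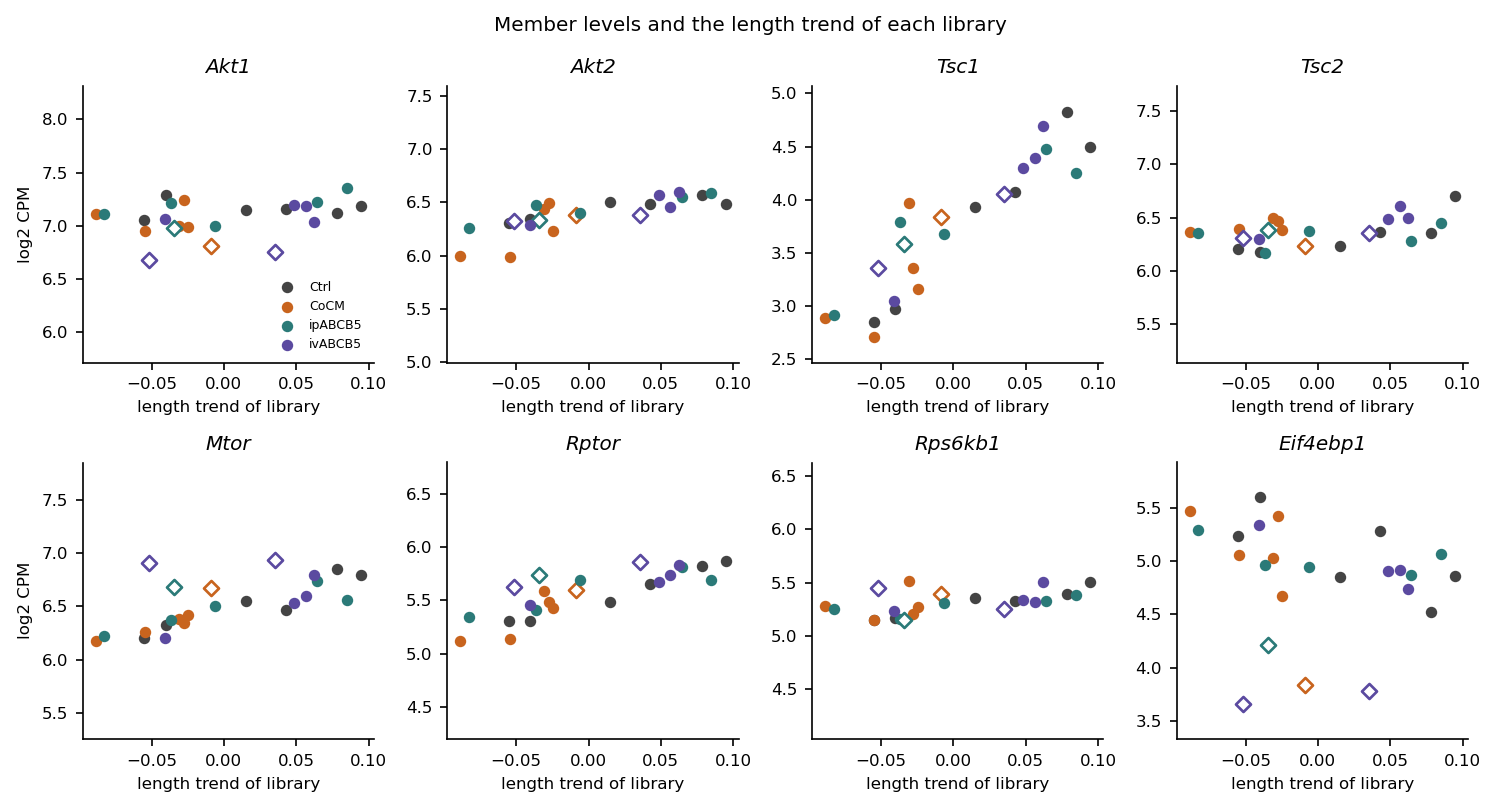
Log2 CPM of each core gene (vertical axis, the same span in every panel) against the length trend of its library (horizontal axis, slope of log2 TPM deviation per doubling of transcript length), with colours for the groups and open diamonds for the 4 kidneys with low injury markers. Tsc1 climbs the most, Mtor, Rptor and Akt2 climb less, and the diamonds stand below the rest for Eif4ebp1 and above kidneys of similar slope for Mtor.

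With the length trend added to the edgeR model as a covariate, the CoCM difference of Tsc1 went from -0.65 ± 0.35 to 0.15 ± 0.18 on the log2 scale, that of Rptor from -0.19 ± 0.12 to 0.01 ± 0.08, that of Mtor from -0.17 ± 0.13 to 0.00 ± 0.12 and that of Akt2 from -0.18 ± 0.09 to -0.06 ± 0.07. Tsc2 and Eif4ebp1 moved away from 0 instead, from 0.04 ± 0.08 to 0.14 ± 0.07 and from -0.09 ± 0.28 to -0.23 ± 0.30. Akt1 went from -0.14 ± 0.09 to -0.08 ± 0.10 and Rps6kb1 from -0.02 ± 0.08 to 0.07 ± 0.07. Whether RNA quality, library preparation or tissue moved the length trend was not tested. This covariate and the removal of the 4 kidneys were chosen after the data were seen.

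The genes whose log2 CPM followed each member most closely over the same 20 kidneys are given as a description. For Mtor they were Heatr5b (Spearman coefficient = 0.983) and Nacc2 (0.971), for Rptor Ash1l (0.97) and Ubr4 (0.968), and for Tsc1 Kif1b (0.983) and Cspg4b (0.983). For Akt1 they were Niban2 (0.908) and Col18a1 (0.853), for Akt2 Unc5b (0.941) and Msmp (0.938), and for Tsc2 Zfp598 (0.901) and Ddx46 (0.898). Lpin2 (0.917) and Ptpn21 (0.899) were nearest to Rps6kb1, and Cdc42ep5 (0.92) and Snrpf (0.911) to Eif4ebp1. Among the members themselves, Rptor and Tsc1 (Spearman 0.943), Mtor and Tsc1 (0.938) and Mtor and Rptor (0.928) ran together, and Eif4ebp1 ran against Mtor (-0.788).

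The wider pathway was read from a list of 93 other genes in 10 roles, of which 84 had a row and were tested. None passed an adjusted p of 0.05 by edgeR in any comparison. At an unadjusted p under 0.05 there were 13 of 84 in CoCM (15.5%, beside 11.9% of all genes), 7 with higher and 6 with lower levels. There was 1 in ipABCB5 (1.19%, beside 1.77% of all genes) and there were 7 in ivABCB5 (8.33%, beside 5.78%). Between the routes there were 4, all with lower levels in ipABCB5 (4.76%, beside 2.14%). The balance of directions in CoCM was not stable. The count there was 21 without the 4 kidneys (6 higher and 15 lower), where 16.9% of all genes were under that p. It was 6 with the length trend as covariate (5 higher and 1 lower), where 5.94% were. By limma on TPM it was 11 (2 higher and 9 lower), where 10.3% were. Without the 4 kidneys the count was 1 in ivABCB5 (1.19%, beside 1.23% of all genes) and 1 between the routes (1.19%, beside 1.13%). With the length trend as covariate it rose to 10 in ivABCB5 (11.9%, beside 5.95% of all genes) and to 7 between the routes (8.33%, beside 3.2%). Single libraries moved these counts and also the share of all genes under that p. In CoCM the count was 8 without CoCM 26 (9.52%, beside 8.75% of all genes). Over the other fits that left out 1 kidney it ran from 9 to 17, where 8.41% to 15.7% of all genes were under that p. In ivABCB5 it was 2 without ivABCB5 36 (2.38%, beside 1.95% of all genes). It was 4 without ivABCB5 37 (4.76%, beside 1.37%) and 4 without Ctrl 1 (4.76%, beside 2.56%). Between the routes it was 2 (2.38%) without ivABCB5 36, ivABCB5 43 or ipABCB5 30, beside 1.52%, 2.04% and 1.88% of all genes. It was 8 without ivABCB5 42 (9.52%, beside 4.25%). In ipABCB5 it ran from 0 to 3 when 1 kidney was left out, where 0.631% to 4.93% of all genes were under that p. For the same comparison limma with voom weights gave 11 (13.1%, beside 9.72% of all genes).

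**Figure D4:**
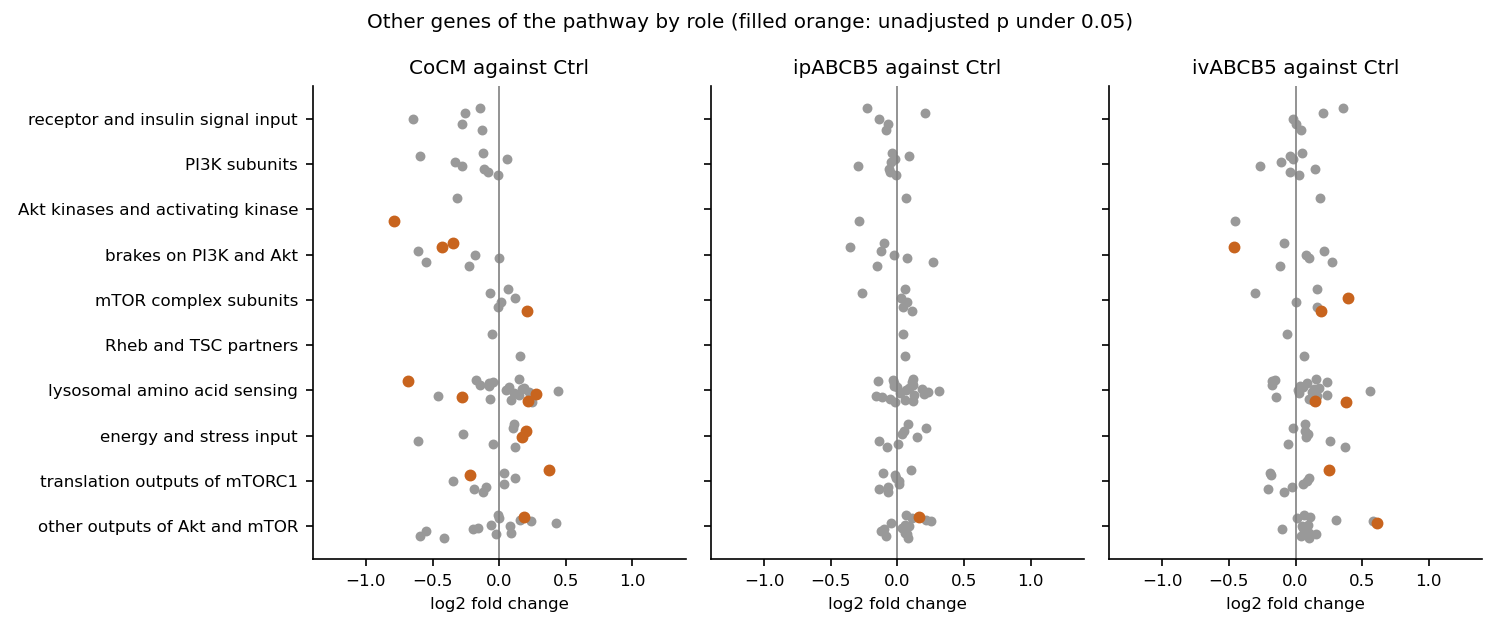
Log2 fold change against Ctrl of the 84 tested genes of the wider pathway (points), by role, for each treatment. Orange points have an unadjusted edgeR p under 0.05, and none has an adjusted p under 0.05.

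Among translation outputs, Rps6kb2, the second S6 kinase, had the smallest p in CoCM. Its level was 54.1 ± 2.32 CPM against 41.8 ± 7.44 in Ctrl (SD, n = 6 each), with a range of 50.4 to 56.2 against 36.04 to 51.8. The log2 fold change was 0.37 ± 0.09, with an adjusted p of 0.202 by edgeR, 0.0258 by DESeq2 and 0.0266 by limma with voom quality weights. Over every alternative tried the adjusted p of Rps6kb2 ran from 0.0258 to 0.555, and among the edgeR fits that left out 1 kidney it passed only without Ctrl 23 (0.047). In ivABCB5 Rps6kb2 was at 0.25 ± 0.09 (adjusted p = 0.673 by edgeR). These were 0.35 ± 0.10 in CoCM and 0.27 ± 0.11 in ivABCB5 for Rps6kb2 without the 4 kidneys.

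In CoCM the other genes with higher levels and the smallest p were Castor2, of the arginine sensor family, Prkag1, a subunit of the energy sensor AMPK, and Akt1s1, an inhibitory mTORC1 subunit also called PRAS40. Castor2 was at 68.6 ± 4.29 CPM (64.5 to 75.8) against 58.9 ± 2.80 (54.4 to 62.2), and its log2 fold change was 0.22 ± 0.06. It was named for its small p, so the gap between these ranges is no separate result. Prkag1 was at 0.20 ± 0.07 and Akt1s1 at 0.21 ± 0.08, and edgeR gave adjusted p-values of 0.226, 0.319 and 0.356 for the 3 genes in that order. With lower levels in CoCM stood the leucine sensor family gene Sesn3 at -0.68 ± 0.29 and the folliculin partner Fnip1 at -0.28 ± 0.12, both with an adjusted p of 0.383 by edgeR. Sesn3 had 19.7 ± 4.26 CPM in CoCM and 31.6 ± 10.8 in Ctrl (SD, n = 6 each). The Spearman coefficient with the length trend over the 20 kidneys was 0.923 for Sesn3, 0.767 for Fnip1 and -0.131 for Rps6kb2. With the 4 kidneys left out, the CoCM values were 0.20 ± 0.07 for Castor2, 0.19 ± 0.07 for Prkag1, 0.15 ± 0.06 for Akt1s1, -0.71 ± 0.28 for Sesn3 and -0.32 ± 0.13 for Fnip1.

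With the cells, Tfeb, a lysosomal transcription factor that mTORC1 retains in the cytoplasm, was at 0.16 ± 0.08 in ipABCB5. In ivABCB5, Castor1, an arginine sensor, was at 0.38 ± 0.15, Akt1s1 at 0.19 ± 0.08 and Castor2 at 0.15 ± 0.06, while Pik3ip1, an inhibitor of PI3K, was at -0.46 ± 0.20. Between the routes, ipABCB5 had lower levels than ivABCB5 of the insulin receptor substrate Irs2 (-0.59 ± 0.20), Castor1 (-0.40 ± 0.15), the kinase Sgk1 (-0.65 ± 0.28) and the mTORC1 inhibitor Ddit4 (-0.45 ± 0.21). By edgeR the adjusted p of Tfeb was 0.978, those in ivABCB5 were 0.673 and those between the routes 0.9999. Tfeb was at 0.13 ± 0.08 without the 4 kidneys. In ivABCB5 Castor1 was then at 0.17 ± 0.13, Akt1s1 at 0.08 ± 0.07, Castor2 at 0.14 ± 0.07 and Pik3ip1 at -0.22 ± 0.14. Between the routes Irs2 was at -0.37 ± 0.19, Castor1 at -0.24 ± 0.13, Sgk1 at -0.67 ± 0.31 and Ddit4 at -0.45 ± 0.23.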

How the data were processed

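Kidney RNA from 24 rats was sequenced on a BGISEQ-500. The submitters' processing notes name Trim Galore 0.6.4, kallisto 0.4.6 and the rat build rn6, without roles. The study's methods name DESeq2 and a human gene model package. The authors deposited estimated counts, not normalised, with 87.9% to 88.7% whole values per kidney. The authors also deposited TPM values, scaled to transcript length and library, summing to 964191 to 976409. Animals were grouped by their labels. Each replicate is a numbered animal. No kidneys of a group had counts within sampling noise of each other (chi-square over its degrees of freedom at least 10.7).

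Symbols came from a RefSeq table of GRCr8, which held 17179 of the 17334 identifiers. No coordinates were used. Counts were rounded and filtered by filterByExpr (12778 genes left), scaled by TMM and tested in edgeR 4.0.16 (R 4.3.3). The standard error is the log2 fold change divided by the square root of F. DESeq2 1.42.0, the study's test, and limma 3.58.1 were alternatives. Log2 CPM used a prior count of 2, and limma on TPM a pseudocount of 1. A length trend was fitted on log2(TPM + 0.5). A floor of 3 counts was never reached by a member. Permutation tests used scipy 1.17.1 or numpy 2.4.6. Tested on counts drawn with 4-fold changes, edgeR recovered 92% of changed genes for CoCM against Ctrl (12727 genes) and called 0 of 12730 when none was changed. The planted changes were larger than any fitted difference of a core gene, so recovery at those smaller sizes was not measured.

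The members, the lists and the tests were chosen with earlier results of these data known. All members were named. Of the wider pathway, up to 4 genes per direction with the smallest unadjusted p under 0.05 and an average log2 CPM above 1 were named in each comparison. The 2 genes most like each member by Spearman correlation were named too. Alternatives were other scaling, filters, samples and tools, and leaving out each kidney. Some of the genes this rule selects are not reported here.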

Additional observations from a re-analysis of the deposited data

Results flagged for a closer look

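One kidney stood away from the other 5 of its group in a core gene. Tsc2 in Ctrl 23 was at 104.1 CPM, while the other control kidneys ran from 72.0 to 82.3 CPM. The gap to its neighbour was 0.68 of the group's range. The same library had the highest length trend of all (0.0946) and a Tsc1 level of 22.5 CPM. In all, 48 sets of 6 values were examined (8 genes, 3 ratios and the length trend in 4 groups), of which chance alone flags about 1 in 20, or 2.4. Without Ctrl 23, edgeR called 31 genes in CoCM against Ctrl in place of 1, and 0 of the 8 core genes. Tsc2 then went, on the log2 fold change scale, from 0.0417 to 0.113 in CoCM and from 0.0816 to 0.152 in ivABCB5, where it had an unadjusted p under 0.05.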

How the results depend on the processing

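Under all 113 recounts (9 alternative settings and 24 fits that each left out 1 kidney) 0 of the 8 core genes were called. The lowest adjusted p of a core gene in any of them was 0.118, for Akt2 in CoCM by limma with voom weights, and at most 2 members had an unadjusted p under 0.05. Over all genes, CoCM against Ctrl gave 1 call by edgeR, 81 by DESeq2 and 183 by limma with voom weights. Differences between groups in the 3 ratios moved by less than 1 SD when the ratios were formed from counts. That outcome was all but set in advance, because transcript lengths nearly cancel in a difference between groups. TPM scaling moved the median log2 difference of all genes by -0.09 in CoCM against that on CPM.

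Of 288 log2 fold changes of single genes under the 9 settings, 27 changed sign, all of them at most 0.191 in size, and 35 of 384 did so when 1 kidney was left out. The cause was not tested. Akt2 between the routes was 0.00146 with no filter, 0.000649 with at least 10 counts in every sample, 0.00161 with only the 2 groups compared, 0.0189 on TPM and 0.0362 with the length covariate. With voom weights Tsc1 and Tsc2 in ipABCB5 were 0.00418 and 0.0233, Akt2 in ivABCB5 0.0502, and Akt1 between the routes -0.0167. On log2(TPM + 1), Tsc2 in CoCM was -0.0544, Rptor in ipABCB5 -0.0205 and Rps6kb1 in ivABCB5 -0.052. Without the 4 kidneys, Eif4ebp1 in CoCM was 0.0536, Akt1 and Akt2 in ipABCB5 0.0293 and 0.0133, and Akt2 and Mtor in ivABCB5 0.0296 and -0.00804. With the length covariate, Mtor, Rptor, Tsc1 and Rps6kb1 in CoCM were 0.00329, 0.0143, 0.152 and 0.0663; Akt1, Akt2, Mtor, Tsc1 and Tsc2 in ipABCB5 were 0.00897, 0.0354, 0.0472, 0.191 and 0.0326, and Tsc1 between the routes 0.0358.

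Leaving out 1 kidney, values that crossed 0 ranged in ipABCB5 from -0.0632 to 0.0225 for Akt1, -0.0554 to 0.0127 for Akt2, -0.0936 to 0.033 for Mtor, -0.0284 to 0.0865 for Rptor, -0.341 to 0.0619 for Tsc1 and -0.0485 to 0.0613 for Tsc2. They ranged in CoCM from -0.205 to 0.0629 for Eif4ebp1 and -0.0613 to 0.01 for Rps6kb1, in ivABCB5 from -0.0488 to 0.00448 for Akt2, -0.00463 to 0.0566 for Rps6kb1 and -0.111 to 0.268 for Tsc1, and between the routes from -0.0343 to 0.0344 for Akt2. No paired analysis was possible because no animal number occurs in more than 1 group. At 75 to 366 counts per kidney, Tsc1 was the least deeply measured member.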
